A study of Mus musculus with 4 samples.

Results

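The ETS factors of endothelium and blood are described here by where the repressive histone mark H3K27me3 lay at 10 mouse genes: Erg, Fli1, Ets1, Ets2, Etv2, Etv4, Etv5, Etv6, Elk3 and Spi1. A peak was assigned to one of these genes when it lay in the gene or within 10 kb of it, or when the deposited annotation gave it that gene's symbol, and genes without any peak were kept. The 10 genes were among 21938 protein-coding genes of the annotation, and they held 3 of 10223 H3K27me3 peaks called with 500 cells and 14 of 15282 peaks called with 15000 cells. All 3 and all 14 carried the member's symbol in the authors' annotation, and 0 rows with a member's symbol fell outside the 10 kb limit.

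The cells were erythro-myeloid progenitors (EMPs), blood progenitors of the yolk sac that give rise to red cells and myeloid cells, taken from E10.5 mouse embryos. They were sorted as LIN-SCA1-KIT+CD16/32+CD41+ cells and profiled by CUT&RUN, in which an antibody directs a nuclease to cut the DNA beside the mark. The series held 4 libraries, an IgG control and an H3K27me3 library at 500 EMPs and the same pair at 15000 EMPs, and the question put to the H3K27me3 libraries was which genes carry the mark that EZH2 deposits. All 4 were labelled C57BL/6, with a genotype entry that names the floxed Ezh2 allele and Tie2-Cre and ends in wild type (Ezh2fl/fl; Tie2-Cre+/+ Wild type), so that the presence of an active Cre could not be settled from it; the Tie2 promoter is active in endothelium and in the blood cells that arise from it. The study's own text describes the EMPs of the H3K27me3 profiles as wild type. How many embryos were pooled for a library was not given in the sources used here.

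ETS factors share a DNA-binding domain that reads a GGAA core. In the early embryo, ETV2 opens the endothelial and blood programme of mesoderm, ERG and FLI1 then hold endothelial and stem cell identity, and PU.1, the product of Spi1, directs myeloid cells. H3K27me3 is placed by Polycomb repressive complex 2, whose catalytic subunit is EZH2, and it collects over CpG-rich starts of developmental genes that are silent in a cell.

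Stretches of DNA at 6 of the genes are printed first, since the results turn on where peaks lay relative to them. They were read from the GRCm38.p6 genome, or for promoters from the RefSeq promoter table of that build, 5′ to 3′ on the strand of the gene, with every CG dinucleotide in capitals. The Erg pair shows the 250 bases before its first RefSeq start, at chr16:95586594-95586843 on the minus strand, and the 250 bases before an internal start, at chr16:95530366-95530615. The first held 14 CG dinucleotides, and peaks covered 137 of its 250 bases with 500 EMPs and all 250 with 15000 EMPs, whereas the internal stretch held 2 and lay under no peak. The Elk3 stretch, chr10:93311160-93311409 on the minus strand, is shown as a CG-rich promoter with no peak in either library, and held 19. The Fli1 stretch is the middle 300 bases of its peak, chr9:32545526-32545825 on the minus strand, with 16. The Ets1 peak, chr9:32637503-32637784 on the plus strand, held 2, the Etv4 peak of the 500-EMP library, chr11:101786360-101786496 on the minus strand, held 0, and the upstream Etv5 peak, chr16:22441040-22441210 on the minus strand, held 3.
Erg, before the first start: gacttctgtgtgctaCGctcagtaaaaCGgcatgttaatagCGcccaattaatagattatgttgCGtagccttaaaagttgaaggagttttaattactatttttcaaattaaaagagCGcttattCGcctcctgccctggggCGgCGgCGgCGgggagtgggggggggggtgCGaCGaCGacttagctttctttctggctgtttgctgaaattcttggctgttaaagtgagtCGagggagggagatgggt
Erg, before an internal start: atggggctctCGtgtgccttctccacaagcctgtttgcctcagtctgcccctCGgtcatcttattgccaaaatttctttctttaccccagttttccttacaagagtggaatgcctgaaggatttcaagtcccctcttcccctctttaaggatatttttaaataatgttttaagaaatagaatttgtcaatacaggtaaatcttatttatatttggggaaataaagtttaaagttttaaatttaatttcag
Elk3, before the start: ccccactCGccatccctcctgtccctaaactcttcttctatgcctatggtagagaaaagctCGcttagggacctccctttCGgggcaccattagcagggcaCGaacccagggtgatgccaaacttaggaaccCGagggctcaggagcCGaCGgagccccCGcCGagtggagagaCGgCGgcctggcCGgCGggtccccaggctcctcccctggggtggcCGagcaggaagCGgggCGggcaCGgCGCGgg
Fli1, middle of the peak at 15000 EMPs: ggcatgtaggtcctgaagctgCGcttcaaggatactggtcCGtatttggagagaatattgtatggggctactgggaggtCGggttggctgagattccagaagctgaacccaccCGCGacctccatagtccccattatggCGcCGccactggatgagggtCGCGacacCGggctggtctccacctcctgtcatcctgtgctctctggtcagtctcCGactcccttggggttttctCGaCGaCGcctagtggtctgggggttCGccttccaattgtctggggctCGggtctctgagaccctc
Ets1, peak at 15000 EMPs: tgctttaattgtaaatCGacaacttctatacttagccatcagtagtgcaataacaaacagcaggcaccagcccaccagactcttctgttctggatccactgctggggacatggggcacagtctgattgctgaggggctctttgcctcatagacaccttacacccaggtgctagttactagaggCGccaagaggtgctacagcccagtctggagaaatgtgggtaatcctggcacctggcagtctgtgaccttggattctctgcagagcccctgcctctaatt
Etv4, peak at 500 EMPs: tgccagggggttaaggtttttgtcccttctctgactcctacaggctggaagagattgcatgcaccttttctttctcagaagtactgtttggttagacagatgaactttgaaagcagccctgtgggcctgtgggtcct
Etv5, upstream peak at 15000 EMPs: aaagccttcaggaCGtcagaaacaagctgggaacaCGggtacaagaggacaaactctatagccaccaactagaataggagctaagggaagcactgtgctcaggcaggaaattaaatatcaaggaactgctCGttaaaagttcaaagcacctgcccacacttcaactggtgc

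In the 15000-EMP list, Erg, Fli1, Ets1, Etv2, Etv4 and Etv5 were marked by a peak inside the gene or up to 10 kb from it, 6 of the 10 genes. This was 60% of the members, beside 25% of all protein-coding genes. With 500 EMPs, Erg and Etv4 had such a peak, 2 of 10 or 20%, beside 15.1% of all protein-coding genes. Both lists left Ets2, Etv6, Elk3 and Spi1 without a peak, so that 2 genes were marked in both lists, 4 with 15000 EMPs alone and 4 in neither. The share of all protein-coding genes in each of these classes was not counted, so this split has no background beside it. The same 6 and 2 genes had a peak within 3 kb of the gene start, taken as the 5′ end of the annotated gene, and the share of all protein-coding genes by that measure was 17% with 15000 EMPs and 9.92% with 500 EMPs. Within 1 kb of the start, a limit with no share of all genes counted, the 15000-EMP count fell to 2, Erg and Etv4. Long genes had a peak more often: among the 2492 genes of 100 kb or more the share within 10 kb was 47.5% and 29.3%. Within 3 kb of the start it was 35.6% with 15000 EMPs and 20% with 500 EMPs, so the equal window did not remove this difference. Erg, Fli1, Ets1 and Etv6 are of that length.

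The peak lists used here hold positions with no height, score or read count, and signal tracks were not used here, so the amount of the mark is given as the length covered by peaks. Each group was 1 library, which leaves no replicate error and no test between the cell numbers. The authors called peaks at p thresholds of 0.01 with 500 EMPs and 0.05 with 15000 EMPs, and the libraries also differed in amplification, sequencer and read length. The study's methods record fewer reads and a far lower share of reads aligned for 500 EMPs than for 15000 EMPs, and cell number cannot be told apart from any of these, which bears on the genes marked with 15000 EMPs alone. For scale, the genes of other lineages Pax3, Pax6, Hoxb13, Neurog1, Sim1 and Dlx5, a list chosen with earlier results of these data known and so no independent check, all had peaks within 3 kb of the start in both lists, and in the window of 6001 bp centred on the start these covered 2657 to 4869 bp with 500 EMPs and 5175 to 6001 bp with 15000 EMPs. Of the 4 sort-gate genes, Kit, Itga2b, Fcgr3 and Fcgr2b, none had a peak within 3 kb of the start in either list, and neither had any of 6 genes of EMPs (Gata1, Klf1, Gfi1b, Myb, Csf1r and Cd34), beside the 17% and 9.92% above. Counted to 10 kb, Fcgr3 had 3 peaks with 500 EMPs and 2 with 15000 EMPs, the nearest 4121 bp and 4057 bp from the gene, and Klf1 had 1 peak with 15000 EMPs, 6140 bp away. Absence of the mark does not measure expression, so these markers do not establish the identity of the cells.

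**Figure D1:**
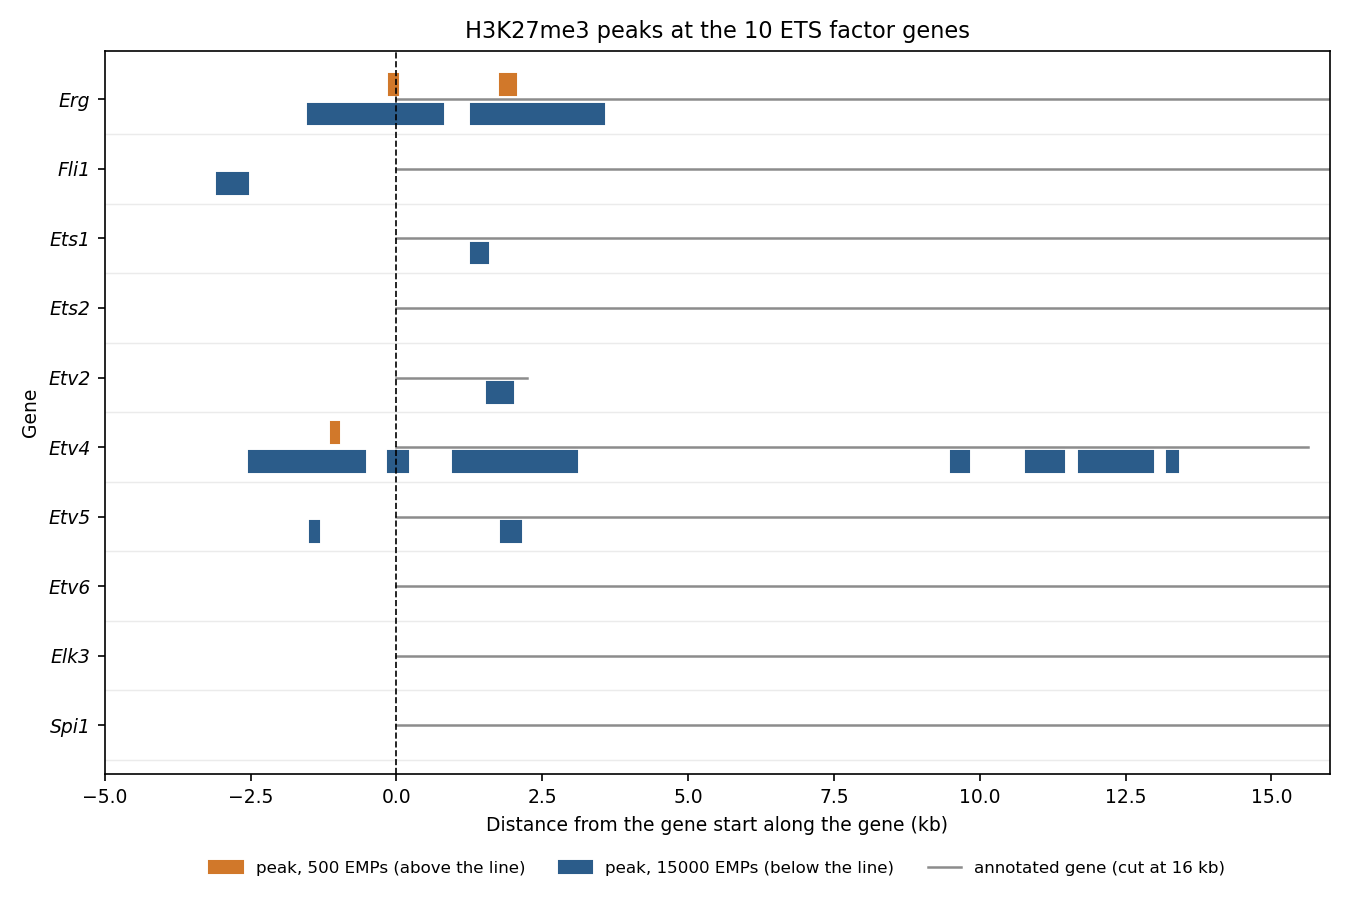
H3K27me3 peaks at the 10 ETS factor genes, drawn as boxes along the distance in kb from the gene start in the direction of transcription, with peaks of 500 EMPs above and peaks of 15000 EMPs below each grey gene line. Erg and Etv4 carried boxes in both lists, Etv4 had 7 boxes with 15000 EMPs, and Ets2, Etv6, Elk3 and Spi1 carried none.

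Erg, which maintains endothelial identity and blood stem cells, had a peak across its gene start in both libraries. It was the only member with one at 500 EMPs, where 1.4% of all protein-coding genes had a peak across the start. Erg (ENSMUSG00000040732) lies on the minus strand at chr16:95359169-95586593. With 500 EMPs, a peak of 170 bp ran from 137 bp before the start to 32 bp after it, over the untranslated first exon, and a peak of 264 bp lay in the first intron, 1779 to 2042 bp after the start. Both were narrower than the median of that list, 363 bp.

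With 15000 EMPs the Erg start lay under a peak of 2314 bp, from 1511 bp before the start to 802 bp after it. A further peak of 2276 bp lay in the intron, 1274 to 3549 bp after the start. These were wide for the list: 79.3% and 78.9% of its peaks were narrower. The 6001 bp around the start were covered over 434 bp (7.23%) with 500 EMPs and over 4041 bp (67.3%) with 15000 EMPs. Of all protein-coding genes, 6.77% had as much covered with 500 EMPs and 5.01% with 15000 EMPs. Both 500-EMP peaks of Erg lay wholly inside its 15000-EMP peaks.

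The mark at Erg lay at the first start and not at the internal starts. Protein-coding transcripts of Erg also begin 56.2 kb, 62 kb and about 127 kb downstream, and around each of these 0 bp of the 6001 bp were covered in either list. The nearest peak to the start at 56.2 kb was 54186 bp away with 500 EMPs and 52679 bp away with 15000 EMPs. The RefSeq promoter window of the first start, 250 bases before to 50 after, had a GC content of 50.3% and a CpG observed-over-expected ratio of 0.94, higher than in 90.4% of 32851 promoter windows. The internal windows with a RefSeq start had ratios of 0.19 and 0.28, and they hold 2 and 4 CG dinucleotides against 16 in the first. The short 500-EMP peak over the start was itself CG-rich: its ratio of 0.87 was higher than that of 98.3% of that list, whereas the intronic 500-EMP peak had a ratio of 0.17. The wider 15000-EMP peaks had the reverse order, with 0.35 over the start (higher than in 64.1% of the list) and 0.41 in the intron (73.3%).

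Fli1, the closest relative of Erg, acts in endothelium and megakaryocytes. It had 1 narrow peak upstream of its start, with 15000 EMPs alone. Fli1 lies on the minus strand at chr9:32422204-32542861, and the peak of 535 bp lay outside the gene, 2547 to 3081 bp before its start. It covered 454 bp of the window (7.57%), an amount that 15.5% of all protein-coding genes had. The transcript start used in the consensus coding set lies further into the gene, and the peak was 3813 bp from it, beyond 3 kb. The peak was CG-rich for its list, with a ratio of 0.53 that was higher than in 89.4% of peaks. With 500 EMPs the nearest peak to Fli1 was 503487 bp away.

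Ets1, an activator in growing vessels and lymphocytes, and Ets2, which acts downstream of growth factor signalling, differed in that Ets1 alone had a peak. Ets1 lies on the plus strand at chr9:32636221-32757820, and its 15000-EMP peak of 282 bp lay 1282 to 1563 bp after the annotated gene start, in an intron. That start belongs to non-coding transcripts, and the nearest start of a protein-coding Ets1 transcript was 58238 bp from the peak. The Ets1 peak was poor in CG, with a ratio of 0.11 that was higher than in 12.4% of the list. Counted from starts of protein-coding transcripts, a measure chosen after the data were seen, Ets1 dropped out and 5 of 10 members had a peak within 3 kb with 15000 EMPs, beside 18.1% of all genes by the same starts. Counted from starts of consensus coding transcripts, Fli1 dropped out too and 4 remained, namely Erg, Etv2, Etv4 and Etv5, beside 18.3% of all genes. The 500-EMP count stayed at 2 by either measure, beside 10.8% and 10.9% of all genes. Ets2, at chr16:95702075-95721051 on the plus strand, had its nearest peak 115345 bp away with 500 EMPs and 102578 bp away with 15000 EMPs.

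These 4 genes are neighbours in pairs. Erg and Ets2 lie 115481 bp apart on chromosome 16 and Fli1 and Ets1 lie 93359 bp apart on chromosome 9, each pair with 0 protein-coding genes between. Each pair is transcribed away from the other, so that the starts face each other across the gap. With 15000 EMPs the peaks stopped 1511 bp upstream of the Erg start, and the rest of the gap up to Ets2 was free of peaks. Likewise the gap between the Fli1 peak and the Ets1 start, 90278 bp, held none. With 500 EMPs, Fli1 and Ets1 lay in a single stretch of 2568118 bp free of peaks.

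Etv2, the factor that starts the endothelial and blood programme in mesoderm and is then switched off, had 1 peak, with 15000 EMPs alone. The gene is 2237 bp long, at chr7:30633616-30635852 on the minus strand. Its peak of 432 bp lay 1559 to 1990 bp after the start, over coding sequence towards the 3′ end, and the start itself was not covered. The peak covered 7.2% of the window, an amount that 15.6% of all protein-coding genes had. It was CG-rich for its list (ratio 0.53, higher than in 88.9% of peaks), whereas the Etv2 promoter window had a ratio of 0.27 and held 5 CG dinucleotides. The nearest other protein-coding gene, Rbm42, was 6706 bp from the peak, and the nearest 500-EMP peak was 165579 bp from Etv2.

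Etv4, a PEA3 factor that acts downstream of FGF signalling, had the most peaks and the largest covered length of the 10 genes with 15000 EMPs. It lies on the minus strand at chr11:101769742-101785371. Its 7 peaks fell into a pair of separate blocks when peaks within 3 kb of each other were joined. The first block, of 3 peaks, spanned 5616 bp from 2521 bp before to 3094 bp after the start, and the second, of 4 peaks, spanned 3889 bp from 9507 to 13395 bp after the start, in the 3′ part of the gene.

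In the first Etv4 block, peaks of 1979 bp and 2123 bp flanked a peak of 344 bp that ran from 147 bp before to 196 bp after the start. Etv4 and Erg were the members with a peak across the start with 15000 EMPs, beside 8.63% of all protein-coding genes. The peak over the start was the CG-richest of the 7, with a ratio of 0.59 against 0.07 to 0.40 in the others. The widest peak of the second block, 1270 bp, overlapped coding exons, as did the peak of 654 bp beside it. The window around the start was covered over 4352 bp (72.5%), and 4.26% of all protein-coding genes had as much.

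With 500 EMPs, Etv4 had only a peak of 137 bp, 989 to 1125 bp before the start. It covered 2.28% of the window and held no CG dinucleotide, as its printed sequence shows. Its width is the smallest of that list, and without peaks of the smallest width Erg was the 1 member left with a peak at 500 EMPs. The peak lay wholly inside the upstream 15000-EMP peak of 1979 bp.

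Etv5, the close paralogue of Etv4 and likewise an FGF-responsive gene, had far less of the mark. It lies on the minus strand at chr16:22381309-22439719. With 15000 EMPs a peak of 339 bp lay in an intron 1792 to 2130 bp after the start, and a peak of 171 bp, the smallest width of that list, lay 1321 to 1491 bp before it. Together they covered 510 bp (8.5%) of the window against 4352 bp at Etv4. The start was left uncovered, although the Etv5 promoter windows had CpG ratios of 0.73 and 0.94, the latter the same as at the marked Erg start. With 500 EMPs the nearest peak was 782645 bp away.

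**Figure D2:**
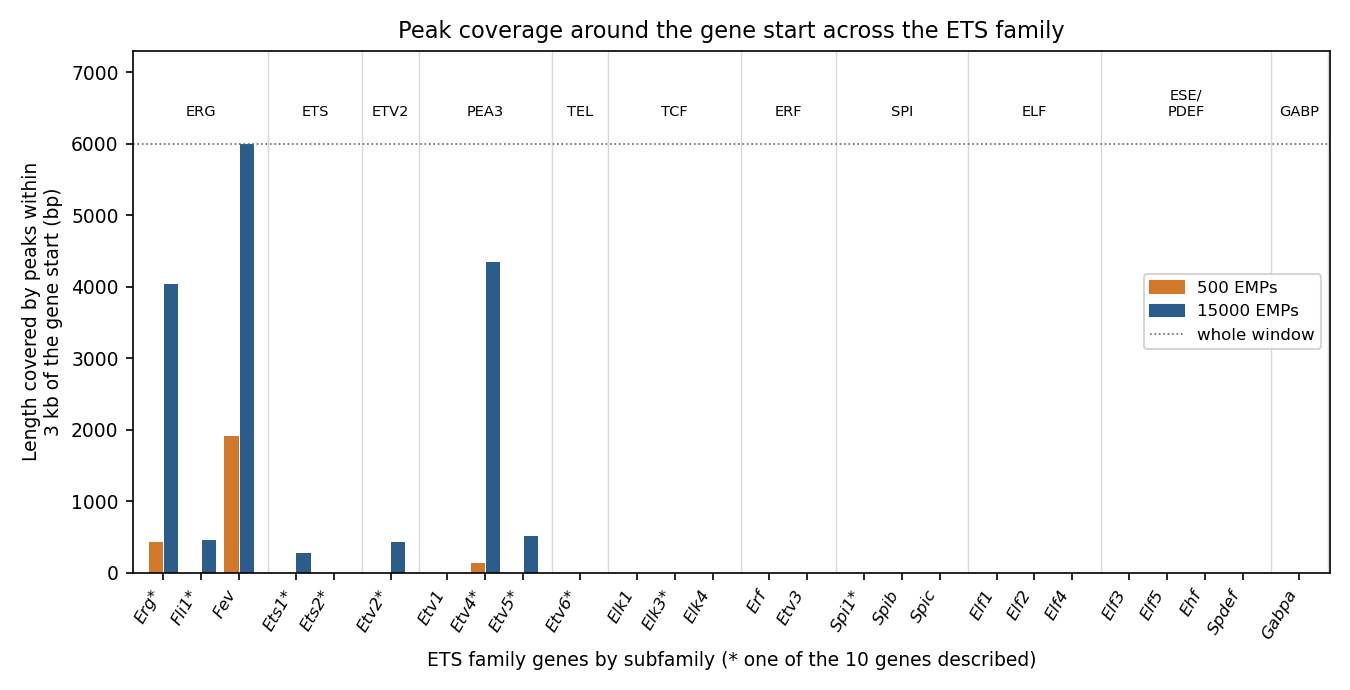
Length in bp covered by H3K27me3 peaks within 3 kb of the gene start for 26 ETS family genes, grouped by subfamily, with orange bars for 500 EMPs, blue bars for 15000 EMPs and 1 library per bar. Fev, Etv4 and Erg stood at 6001, 4352 and 4041 bp with 15000 EMPs, Fli1, Ets1, Etv2 and Etv5 lay between 282 and 510 bp, and every other gene was at 0.

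The members without a peak were Ets2, described above, Etv6, Elk3 and Spi1. Etv6, a repressor needed for yolk sac vessels and for blood stem cells of the bone marrow, was the most distant from a peak among the 4 genes unmarked in both lists. It lies at chr6:134035700-134270158 on the plus strand, and its nearest peak was 591960 bp away with 500 EMPs and 770687 bp away with 15000 EMPs. The stretch free of peaks around Etv6 was 6560763 bp and 3605784 bp long.

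Elk3, a partner of serum response factor that represses its targets until it is phosphorylated, lies at chr10:93247414-93311135 on the minus strand. Its nearest peak was 328848 bp away with 500 EMPs and 327602 bp away with 15000 EMPs. Spi1, at chr2:91082390-91115756 on the plus strand, encodes the myeloid factor PU.1, and its nearest peak was 139699 bp away with 500 EMPs and 138007 bp away with 15000 EMPs. Distances of this size were common: among the 16273 protein-coding genes without a peak within 10 kb at 15000 EMPs the median distance was 146 kb, and 60.2% were over 100 kb away. At 500 EMPs the median over 18452 such genes was 246 kb, and 73.3% were over 100 kb away. By these medians Etv6 and Elk3 lay further than the typical unmarked gene in both lists, and Spi1 and Ets2 lay nearer.

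**Figure D3:**
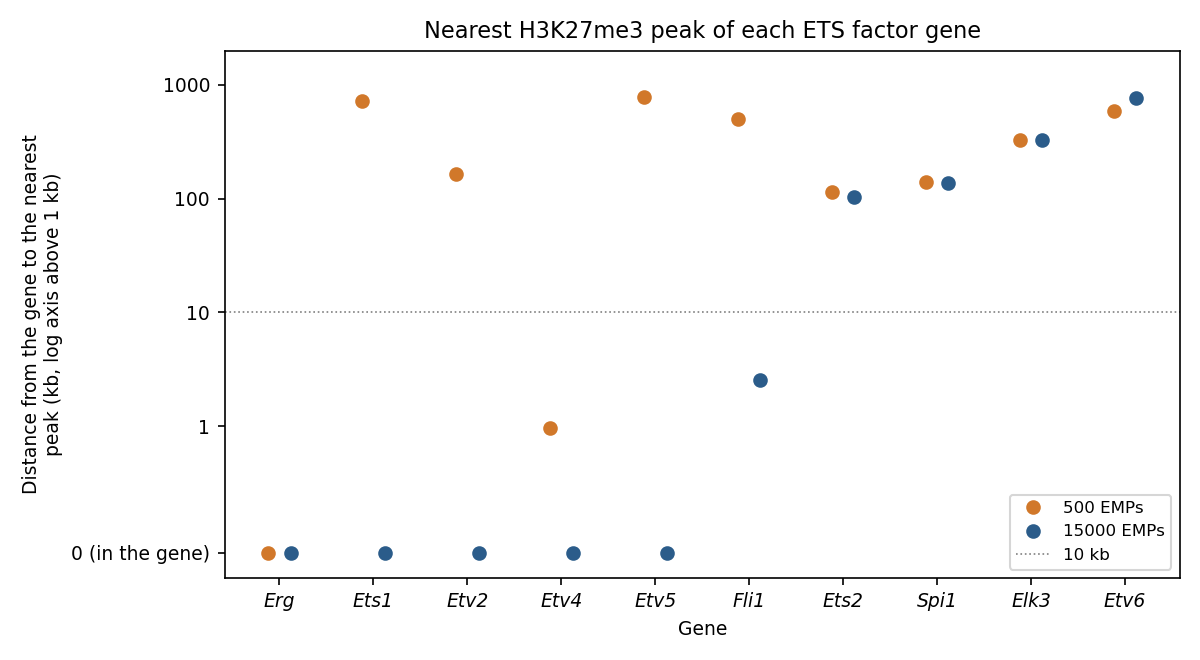
Distance in kb from each ETS factor gene to the nearest H3K27me3 peak, on an axis that is logarithmic above 1 kb and linear below it, with orange points for 500 EMPs and blue points for 15000 EMPs. Ets2, Spi1, Elk3 and Etv6 lay over 100 kb from a peak in both lists, while Fli1, Ets1, Etv2 and Etv5 moved from over 100 kb with 500 EMPs to under 10 kb with 15000 EMPs.

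CG-rich promoter windows were present at marked and unmarked members alike. The RefSeq promoter table held windows for 6 of the 10 genes, 9 windows in all (Erg, Ets2, Etv2, Etv5, Etv6 and Elk3), and Fli1, Ets1, Etv4 and Spi1 were not matched. Of the 6 windows with a CpG ratio of 0.6 or more, only the first window of Erg overlapped a peak, which covered 170 of its 300 bases with 500 EMPs and all 300 with 15000 EMPs. The unmarked windows of Ets2, Elk3 and Etv6 had ratios of 0.79, 0.82 and 0.69. Of all promoter windows with a ratio of 0.6 or more, 2.71% overlapped a peak with 500 EMPs and 12.5% with 15000 EMPs, and of those with a lower ratio 1.99% and 6.72% did.

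**Figure D4:**
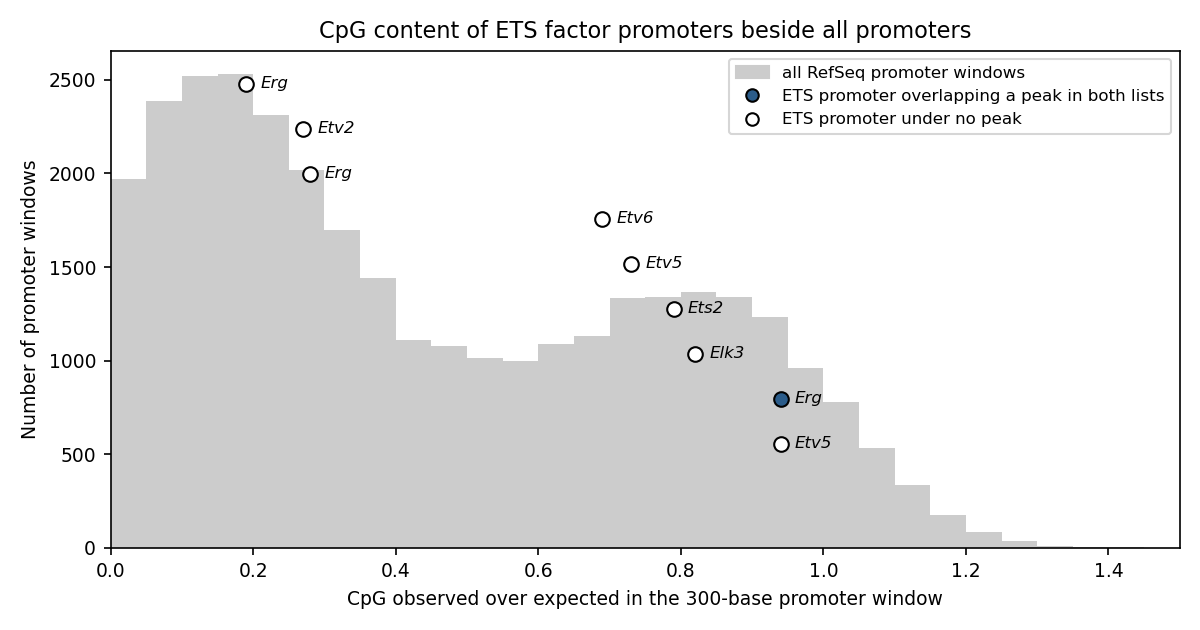
CpG observed-over-expected ratio of 300-base RefSeq promoter windows, as a grey histogram over all windows with circles for 9 windows of ETS factor genes placed at their ratio (the height of a circle has no meaning). The only filled circle, the first Erg window at 0.94, overlapped a peak in both lists, and the Etv5 window at the same ratio and the Elk3, Ets2 and Etv6 windows lay under none.

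The letters GGAA, the core that ETS proteins read, were searched on both strands of the same windows. The core occurred in 96% of all promoter windows with a median of 3 per window, so its presence sets no gene apart. The Etv2 window held 11, the Etv6 window and a window of Etv5 held 6 each, the other Etv5 window held 0, and the marked Erg window held 1. These are matches of letters and not measured sites.

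At the members, all 3 of the 500-EMP peaks shared 1 bp or more with a 15000-EMP peak (100%, 95% Wilson interval 43.9 to 100%), and all 571 bp they covered were shared. Over the whole 500-EMP list, 91.2% of peaks did so and 93% of the covered length was shared, so the count of 3 was near the rate of the list. In the other direction, 3 of 14 peaks (21.4%, 7.57 to 47.6%) overlapped a 500-EMP peak, and 571 of 13201 bp (4.33%) were shared. Over the whole 15000-EMP list these shares were 32.2% of peaks, which lies inside the members' interval, and 23.1% of the covered length. These intervals cover counting error only and treat peaks as independent, although 7 of the 14 lay at Etv4. Joining peaks within 1 kb left 8 at the members. By covered length the members' 4.33% lay well below the 23.1% of the list. Of the 14 peaks with 15000 EMPs, 5 were wider than the list's median of 770 bp, and all 5 were at Erg or Etv4. None of the 17 peaks at the members overlapped another annotated gene, and none lay nearer to another protein-coding gene than to the member.

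Of 16 other ETS genes, Fev had a peak within 3 kb of its start in both lists, and 15 had none there. By this measure the share was 6.25% in each list, beside 17% of all protein-coding genes with 15000 EMPs and 9.92% with 500 EMPs. Fev, a relative of Erg and Fli1 that specifies serotonergic neurons, was covered over 1910 bp (31.8%) with 500 EMPs and over the whole window with 15000 EMPs, in a peak of 7975 bp. In the ERG subfamily the covered length with 15000 EMPs was 6001 bp at Fev, 4041 bp at Erg and 454 bp at Fli1. In the PEA3 subfamily it was 4352 bp at Etv4, 510 bp at Etv5 and 0 bp at Etv1, whose nearest peak was 897342 bp away. Counted to 10 kb, the genes marked were 3 of the 16 (18.8%) in the 15000-EMP list and 1 (6.25%) in the other, beside 25% and 15.1% of all protein-coding genes. No test was made of the members against these genes, since the members were chosen with results of these data known.

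Genes that work with ETS factors were counted beside them. Among 5 partner factors of blood progenitors (Runx1, Gata2, Tal1, Lyl1 and Lmo2), Gata2 had a peak within 3 kb of its start with 15000 EMPs, covering 2334 bp, and 0 of 5 had one with 500 EMPs. This 1 of 5 (20%) was near the 17% of all protein-coding genes. Among 18 endothelial genes with known ETS-bound elements, 5 (27.8%) had one with 15000 EMPs and 3 (16.7%) with 500 EMPs, beside 17% and 9.92% of all protein-coding genes by this measure. Of the 18, 5 are 100 kb or longer, a class in which the shares were 35.6% and 20%. The marked genes were the VEGF receptor gene Flt1 (5427 bp and 1734 bp), the tight junction gene Cldn5 (3328 bp and 1188 bp), the Notch ligand gene Dll4 (2174 bp and 219 bp), the co-receptor gene Nrp1 (1751 bp with 15000 EMPs alone) and the VEGF receptor gene Kdr (274 bp with 15000 EMPs alone). Among 12 myeloid genes regulated by PU.1, 3 (25%) had one with 15000 EMPs and 1 (8.33%) with 500 EMPs, the latter near the share of all genes. These were the lipopolysaccharide co-receptor gene Cd14 (4833 bp and 388 bp), and the myeloid factor genes Irf8 (2163 bp) and Cebpa (1381 bp) with 15000 EMPs alone. Flt1 and Cd14 had more of the window covered than Erg and Etv4 with 15000 EMPs, whereas Kdr had less than any marked member.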

How the data were processed

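The members and gene lists were chosen with earlier results of these data known. The authors aligned CUT&RUN reads to GRCm38 (mm10) and called broad peaks in each H3K27me3 library against the IgG library of the same cell number, and annotated them with ChIPpeakAnno. The submitters' processing notes name Bowtie2 2.2.1, SAMtools 1.9, MACS2 2.1.2 and deepTools 3.5.1. A command listing published with the study names, under each threshold, the library of the other cell number, so which threshold made which list rests on the methods text. The deposited peak lists and annotated tables used here hold other values than counts: peak start and end and, in the annotated tables, a distance to a gene, all in bp. Signal tracks that the authors made with deepTools were not used here. The methods and the labels name different library kits. The IgG libraries have no peak list used here.

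Positions were made 1-based and compared with GENCODE vM21 protein-coding genes, with an overlap of at least 1 bp (Python 3.11.15, numpy 2.4.6, pysam 0.24.0, samtools 1.23.1). Shares of overlapping peaks have Wilson intervals (scipy 1.17.1), and figures used matplotlib 3.10.9. Interval arithmetic was tested on simulated data. All members were named. Of the other lists, genes with a peak within 3 kb of the start were named. Alternatives were other distance limits and windows, other gene starts, narrow peaks left out, neighbouring peaks joined and stricter overlaps. CpG observed over expected is the count of CG times the length over the product of the C and G counts.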

Additional observations from a re-analysis of the deposited data

How the results depend on the processing

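Of 66 alternatives for 10 counts and sums, 50 stayed within 1.5 times the reported value and 16 did not. No paired analysis was possible because each group had 1 library, and no library could be left out. Of the 2 members with a 500-EMP peak, 1 was left when only peaks in the gene counted (Erg) and 1 without peaks of the smallest width, by the 10 kb and the 3 kb limit alike; 0 were left without peaks under 500 bp. With 15000 EMPs, 3 members were left without peaks under 500 bp, and 2, Erg and Etv4, with a limit of 1 kb from the start. The median width of the 500-EMP list was 363 bp, so a limit of 500 bp left out most of all its peaks. Shares of all protein-coding genes under these settings were not counted, so the drops cannot be read as a trait of the members. The covered length summed over the members was 571 bp with 500 EMPs and 10071 bp with 15000 EMPs in the 3 kb window. With 1 kb on either side of the start it was 182 bp and 2634 bp, and with peaks within 3 kb joined it was 2317 bp with 500 EMPs. Requiring an overlap of 50% of the 15000-EMP peak left 0 of its 14 peaks shared, and requiring 50% of both peaks left 0 in either direction. Of the other ETS genes, 2 had a 500-EMP peak within 20 kb and 3 within 50 kb. With 15000 EMPs 1 had a peak in the gene and 5 had a peak within 50 kb. For these limits too, no share of all protein-coding genes was counted. The alternative gene starts limited to coding transcripts were chosen after seeing the data. For the covered length at single members, 39 of 48 alternatives stayed within 1.5 times where that length was above 0, and 9 did not, all but 1 of these with the window of 1 kb. Where it was 0 it stayed 0 under all 72. The 500-EMP library had fewer reads and a lower alignment rate by the study's methods, and the lists used here hold no counts, so how far depth limits the absence of a peak was not tested.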
